A study of Mus musculus with 2 samples.

Results

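The immunoglobulin constant genes were examined in single TCRβ+ cells of a WT and a DKO-severe mouse. The set holds 10 of the 32285 genes counted: the heavy chain genes *Ighm*, *Ighd*, *Ighg1*, *Ighg2b*, *Ighg2c*, *Ighg3* and *Igha* and the light chain genes *Igkc*, *Iglc1* and *Iglc2*. They were taken by name, and all 10 are in both count matrices. Each was followed in 5 groups of cells, called gates here, defined by other transcripts: cells with 3 or more *Cd79a* UMIs, cells with 20 or more *Jchain* UMIs, and Cd4, Foxp3-positive and Cd8 cells. A UMI is a captured mRNA molecule counted a single time whatever its length, so UMIs can be compared between genes.

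Spleen cells were pooled with those of inguinal and cervical lymph nodes from each mouse at 14 weeks of age, and there was 1 mouse per genotype. WT was a *Foxp3Cre* WT mouse. DKO-severe was a *Foxp3Cre Tet2/3* flox/flox mouse with severe disease. Both carried Cre under *Foxp3*, which is meant to delete the floxed *Tet2* and *Tet3* alleles in Treg cells and their descendants. This Cre can be expressed outside Treg cells, and deletion in the B lineage was not tested. Cells were sorted for surface TCRβ, tagged with antibody Hashtag 1 (WT) or Hashtag 2 (DKO-severe) and sequenced in 1 mRNA library. The spread between mice is therefore unknown, no test between genotypes was made, and every interval below is an exact 95% interval that covers counting error only.

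B cells make antibody from a heavy chain and a light chain, each with a variable part that binds antigen and a constant part that sets the isotype. A naive B cell splices *Ighm* and *Ighd* onto the same variable exon and shows IgM and IgD on its surface. After activation the cell can undergo class switching, in which the DNA between *Ighm* and a downstream constant gene is removed and the same variable exon is joined to an IgG, IgE or IgA gene. Plasma cells are the antibody-secreting end stage, and *Jchain* encodes the joining chain that links IgM and IgA into polymers. T cells are not known to secrete immunoglobulin. Autoantibody production was a question of the study, and these genes show which isotypes the captured B lineage cells carried.

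The sequences that set the members apart are given first, 5′ to 3′ on the coding strand, from the GRCm38 (mm10) genome with Gencode vM21 exons. The heavy chain genes lie on the minus strand of chromosome 12 in the order in which switching can reach them: *Ighm* (chr12:113418558-113422730), *Ighd* (chr12:113406604-113416324), *Ighg3* (chr12:113356224-113361232), *Ighg1* (chr12:113325240-113330523), *Ighg2b* (chr12:113302965-113307933), *Ighg2c* (chr12:113285325-113288932) and *Igha* (chr12:113254830-113260236). *Igkc* is on the plus strand at chr6:70726435-70726966, and *Iglc1* (chr16:19061618-19062071) and *Iglc2* (chr16:19198396-19200351) are on the minus strand. The last 60 coding bases of the secreted forms of *Ighm* (chr12:113420870-113420929) and *Igha* (chr12:113258771-113258830) are shown because these are the isotypes that *Jchain* joins. The capitals mark the codon of the cysteine that is the next to last residue, through which the joining chain is bound.
Ighm: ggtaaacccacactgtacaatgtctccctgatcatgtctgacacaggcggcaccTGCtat
Igha: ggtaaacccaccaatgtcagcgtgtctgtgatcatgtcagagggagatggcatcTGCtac

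The 4 IgG genes differ most in the hinge exon, which connects the antigen-binding arms to the tail. It is shown because *Ighg1*, *Ighg2b* and *Ighg2c* were higher in the *Jchain* cells of the DKO-severe mouse. *Ighm* and *Igha* were lower there. The exons are at chr12:113329844-113329882 (*Ighg1*, 39 bases), chr12:113307261-113307326 (*Ighg2b*, 66 bases), chr12:113288263-113288325 (*Ighg2c*, 63 bases) and chr12:113360529-113360576 (*Ighg3*, 48 bases). The capitals mark cysteine codons, of which there are 4, 4, 3 and 1.
Ighg1: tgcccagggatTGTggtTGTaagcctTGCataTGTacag
Ighg2b: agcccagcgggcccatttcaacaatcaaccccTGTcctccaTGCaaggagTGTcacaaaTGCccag
Ighg2c: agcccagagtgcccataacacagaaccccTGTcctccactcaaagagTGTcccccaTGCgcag
Ighg3: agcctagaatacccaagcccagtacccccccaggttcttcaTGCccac

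Over the whole coding sequence, *Ighg2b* and *Ighg2c* shared 85.9% of aligned bases, with an identical stretch of up to 78 bases, and the other IgG pairs shared 74.4 to 77.0%. Low counts of *Ighg2c* beside high *Ighg2b*, or the reverse, are therefore uncertain. The lambda genes are shown for the same reason, by their last 60 coding bases: *Iglc1* (chr16:19061755-19061814), *Iglc2* (chr16:19198539-19198598) and *Iglc3* (chr16:19065368-19065427), which is not in the set. The capitals mark the bases that differ from *Iglc2*, 13 in *Iglc1* and 1 in *Iglc3*.
Iglc1: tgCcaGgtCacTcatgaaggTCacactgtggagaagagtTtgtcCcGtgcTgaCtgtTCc
Iglc2: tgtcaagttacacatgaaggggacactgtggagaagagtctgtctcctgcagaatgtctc
Iglc3: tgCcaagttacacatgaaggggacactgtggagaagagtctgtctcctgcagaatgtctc

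*Iglc2* and *Iglc3* were identical at 95.9% of 314 aligned coding bases, while *Iglc1* and *Iglc2* shared 73.7%. How the counting divided reads between *Iglc2* and *Iglc3* is not known, so *Iglc2* is uncertain and lambda shares are also given with *Iglc3*. *Igkc* has no close copy, and its last 60 coding bases are at chr6:70726695-70726754.
Igkc: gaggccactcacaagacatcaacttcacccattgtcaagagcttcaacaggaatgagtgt

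After filtering, 6544 WT and 6358 DKO-severe cells remained, with medians of 5602 and 8076.5 UMIs per cell, and the matrices shared 0 barcodes. The 10 members held 119787 of 40927240 WT UMIs (0.293%) and 257892 of 61522976 DKO-severe UMIs (0.419%). Levels are given as UMIs per 1000000 (CPM). In Foxp3-positive cells *Tet2* was at 57.9 (WT) and 72.5 CPM (DKO-severe), and *Tet3* at 86.8 and 86.4 CPM. 3′ reads outside a deleted part check nothing, so the genotype rests on the hashtags: each matrix had a median of 1973 (WT) or 4726 (DKO-severe) counts of its own tag and 110 or 36 of the other.

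The *Cd79a* gate, named for a signalling chain of the B cell receptor, held 42 WT cells (0.642% of retained cells, 0.463 to 0.867%) and 363 DKO-severe cells (5.71%, 5.15 to 6.31%), with medians of 9793 and 5771 UMIs. The *Jchain* gate held 9 WT cells (0.138%) and 28 DKO-severe cells (0.440%), with medians of 27734 and 21382 UMIs. 7 of the WT and 25 of the DKO-severe *Jchain* cells were also in the *Cd79a* gate. Markers of these names were found, though not each of them in every cell. Among *Cd79a* cells with fewer than 20 *Jchain* UMIs, *Pax5*, a B cell identity factor, was detected in 35 of 35 cells from WT and 317 of 338 from DKO-severe. In the *Jchain* gate *Mzb1*, a chaperone of antibody assembly, was found in 9 of 9 and 28 of 28 cells, and *Xbp1*, a driver of the secretory programme, in 9 and 26. The cells classed below as switched were 35 in DKO-severe, 22 of them in this gate. *Mzb1* was found in 34 of the 35, *Xbp1* in 27, *Sdc1* in 13, *Prdm1* in 10 and *Tnfrsf17* in 5. *Mzb1* was also found in 213 of 275 DKO-severe cells classed below as *Ighm*, of which 5 were in this gate. All these cells had passed a sort for TCRβ, and UMIs of *Cd3d*, *Cd3e* or *Cd3g* were found in 28 of 42 and 151 of 363 *Cd79a* cells and in 7 of 9 and 19 of 28 *Jchain* cells. The sum of 6 T cell markers was 920 and 293 CPM in the *Cd79a* gate and 508 and 364 CPM in the *Jchain* gate. Whether these droplets held a T cell beside a B lineage cell was not tested, so results are also given for cells without those UMIs.

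B cell-like cells, the *Cd79a* cells with fewer than 20 *Jchain* UMIs, carried IgM and IgD transcripts in both mice. *Ighm* had 14.2 UMIs per cell in the 35 WT cells and 13.2 in the 338 DKO-severe cells, with medians of 7 and 11, and it was found in 35 and 325 of them. *Ighd* had 4.54 and 4.16 UMIs per cell and was found in 29 and 266 cells. In CPM both were higher in DKO-severe, at 1473 and 1870 CPM for *Ighm* (log2 ratio of DKO-severe over WT 0.34, 0.21 to 0.48) and 472 and 588 CPM for *Ighd* (0.32, 0.08 to 0.56). These were small differences beside those of the switched genes.

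The switched genes were sparse in these cells outside a few of them. *Ighg1* had 4 UMIs over all WT cells and 96 over all DKO-severe cells (11.9 and 40.2 CPM, log2 ratio 1.76, 0.36 to 3.66). *Ighg2b* had 8 and 2853 UMIs, but 93.3% of the DKO-severe UMIs came from 1 cell with 2661. That cell also held 7508 *Igkc* UMIs, had fewer than 20 *Jchain* UMIs and lay in the Cd4 gate as well. *Ighg3*, the first IgG gene downstream of *Ighm*, had 11 UMIs (32.7 CPM) over WT cells and 19 (7.96 CPM) over DKO-severe cells, a lower level (log2 ratio -2.04, -3.18 to -0.82), and 13 of the 19 were in 1 cell. *Ighg2c* had 3 and 8 UMIs and *Igha* 1 and 12.

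The light chain genes were found in most B cell-like cells. *Igkc*, the kappa constant gene, had medians of 26 UMIs per cell in WT and 30 in DKO-severe and was at 3565 and 8021 CPM (log2 ratio 1.17, 1.09 to 1.26); 39.2% of the DKO-severe UMIs were in the cell described above. *Iglc1* was at 1114 and 848 CPM (-0.39, -0.55 to -0.23), and 32.3% of its WT UMIs were in 1 cell. *Iglc2* was at 772 and 948 CPM (0.30, 0.11 to 0.49). Thus kappa was the larger light chain by UMIs in both mice, and the lambda genes made up 34.6% of light chain UMIs in WT and 18.3% in DKO-severe (800 of 2000 UMIs in WT and 22.5% in DKO-severe with *Iglc3*).

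**Figure D1:**
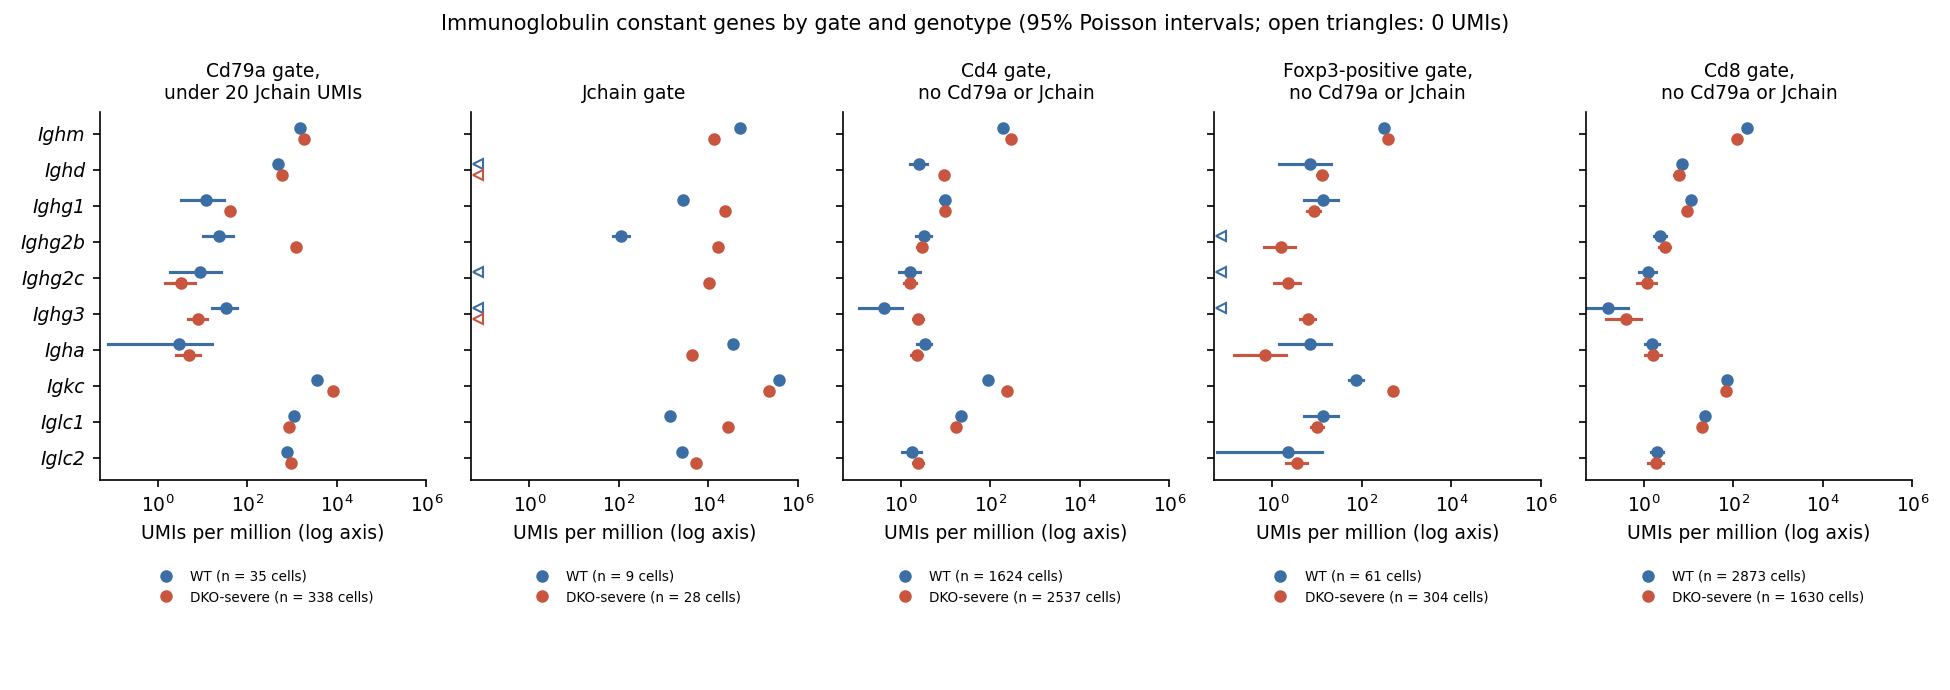
Level of the 10 constant genes in 5 gates, in CPM on a log axis, in WT (blue) and DKO-severe (red); each point is the sum over the cells of 1 mouse, bars are 95% Poisson intervals and open triangles mark 0 UMIs. In the *Jchain* gate *Ighm* and *Igha* lie higher in WT and *Ighg1*, *Ighg2b* and *Ighg2c* higher in DKO-severe, with *Ighg3* at 0 UMIs in both, and in the T cell gates *Igkc* stands apart in DKO-severe Foxp3-positive cells at 496 against 75.0.

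Plasma cell-like cells, those with 20 or more *Jchain* UMIs, mostly gave up a large part of their mRNA to these genes. The name rests on the *Jchain* limit alone: the DKO-severe cell lowest in members had 27 *Jchain* and 24 *Cd79a* UMIs. The members took 12.3 to 63.5% of a WT cell's UMIs (median 50.1%) and 0.655 to 72.5% of a DKO-severe cell's (median 34.4%), so the 2 ranges overlapped. Heavy chain UMIs per cell ran from 498 to 3798 (median 2197) in WT and from 8 to 3543 (median 1596.5) in DKO-severe. *Jchain*, by which the cells were chosen, ran from 291 to 2244 (median 1218) and from 27 to 1761 (median 369). The range of every one of these quantities reached lower in DKO-severe.

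The isotypes of these cells differed between the mice. Of the 9 WT cells, 5 were called *Ighm*, 3 *Igha* and 1 *Ighg1*, where a call needs 10 or more heavy chain UMIs with at least 80% from 1 class (*Ighm* and *Ighd* together being 1 class). Of the 28 DKO-severe cells, 11 were called *Ighg1*, 7 *Ighg2b*, 5 *Ighm*, 3 *Ighg2c* and 1 *Igha*, and 1 had too few heavy chain UMIs. Switched cells were 4 of 9 called cells in WT (44.4%, 13.7 to 78.8%) and 22 of 27 in DKO-severe (81.5%, 61.9 to 93.7%), so the 2 intervals overlapped. IgG-called cells were 1 of 9 and 21 of 27. The calls were clean: the leading class held 98.8% or more of heavy chain UMIs in every WT cell (median 99.97%) and 93.7% or more in every called DKO-severe cell (median 99.9%).

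The counts behind the calls were large in nearly every cell. *Ighm*, the gene of the first antibody class made, had 498, 2046, 2197, 2854 and 3797 UMIs in the 5 WT cells called for it and 589, 1120, 1738, 1970 and 2719 in the 5 DKO-severe cells. *Igha*, the class of mucosal antibody, had 1889, 2492 and 3302 UMIs in 3 WT cells and 2693 in 1 DKO-severe cell. Levels per called cell thus overlapped between the mice for *Ighm*, and the *Igha* value of DKO-severe lay within the WT range. *Ighg1*, the IgG class typical of help by IL-4, had 594 UMIs in the WT cell and 74 to 1999 in the 11 DKO-severe cells. *Ighg2c*, the class typical of help by IFN-γ in mice that carry this gene, had 1111, 1739 and 3542 UMIs in 3 DKO-severe cells, and *Ighg2b* had 20 to 3013 in 7. *Ighd* and *Ighg3* had 0 UMIs in all 9 WT and 28 DKO-severe *Jchain* cells, so no ratio is given for them.

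**Figure D2:**
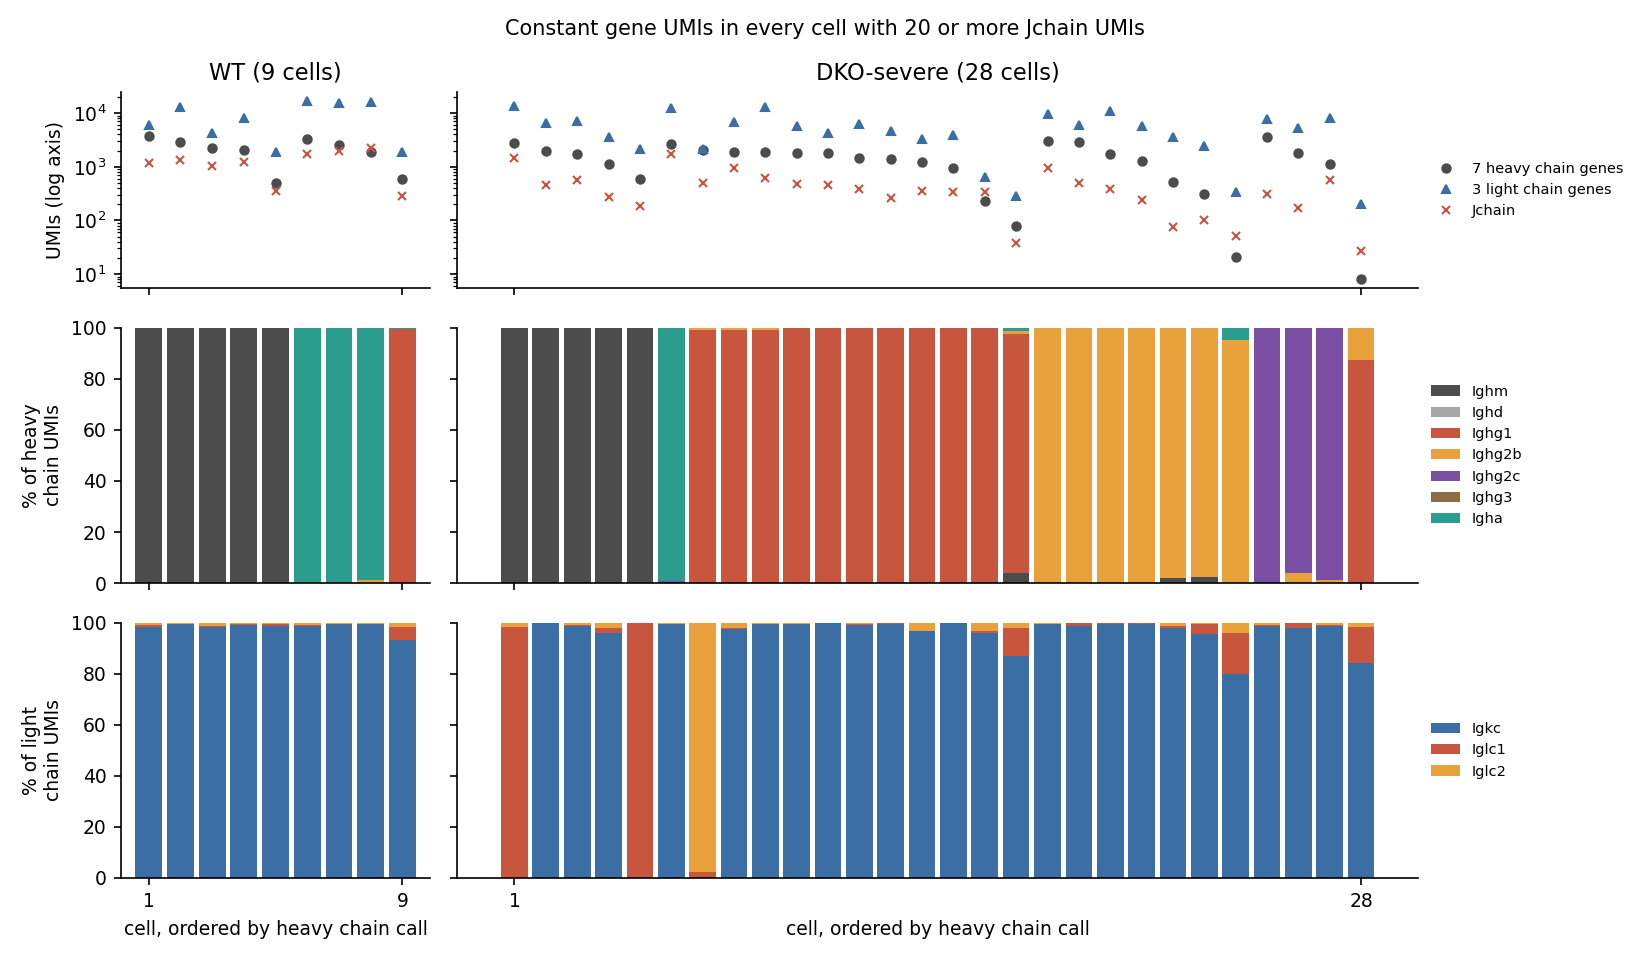
Every cell with 20 or more *Jchain* UMIs, 9 WT (left) and 28 DKO-severe (right), ordered by heavy chain call: UMIs of the 7 heavy chain genes, the 3 light chain genes and *Jchain* on a log axis (top), and the share of each heavy (middle) and light chain gene (bottom) in percent. Nearly every cell carries 1 heavy and 1 light chain gene; *Igha* cells are 3 of 9 in WT and 1 of 28 in DKO-severe.

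Summed over the gate, *Ighm* was at 51680 CPM in the WT and 13204 in the DKO-severe mouse (log2 ratio -1.97, -2.01 to -1.93), and *Igha* at 34862 and 4367 (-2.997, -3.06 to -2.93). *Ighg1* was higher at 23669 against 2753 CPM (3.10, 2.99 to 3.22) and *Ighg2b* at 16017 against 113 (7.14, 6.58 to 7.77). *Ighg2c* had 0 WT and 6407 DKO-severe UMIs. With the WT gate counted at the floor of 3 UMIs this is 761-fold higher (log2 ratio 9.57, lower bound 9.27). These sums rest on few cells: the highest 5 cells held 79.7% of the members' UMIs in WT and 36.3% in DKO-severe, and 1 cell held 99.7% of DKO-severe *Igha*. *Ighe*, the IgE gene, which is not in the set, had 14 UMIs in 1 WT cell and 1 in DKO-severe.

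As shares of heavy chain UMIs, the WT *Jchain* gate was 57.8% *Ighm*, 39.0% *Igha*, 3.08% *Ighg1* and 0.127% *Ighg2b*. In DKO-severe it was 35.0% *Ighg1*, 23.7% *Ighg2b*, 19.5% *Ighm*, 15.3% *Ighg2c* and 6.46% *Igha*. The switched genes together made up 42.2% (41.5 to 42.9%) and 80.5% (80.1 to 80.9%), and the IgG genes 3.21% and 74.0%. With the cell highest in members left out of each mouse, the switched share was 30.6% in WT and 86.1% in DKO-severe. In *Jchain* cells without *Cd3* UMIs only 2 WT cells were left (1 *Igha* and 1 *Ighg1*), and the 9 DKO-severe cells were 5 *Ighg2b*, 2 *Ighg1*, 1 *Ighm* and 1 with too few UMIs.

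Over the whole *Cd79a* gate the switched share was 46.7% in WT and 75.2% in DKO-severe. This order turned in 3 other counts. In the subset without *Cd3* UMIs it was 93.7% (14 WT cells) and 65.9% (212 DKO-severe cells), and as a mean of per-cell shares over the gate it was 16.4 and 12.3%. By cells called, with overlapping intervals, switched cells were 4 of 32 in WT (12.5%, 3.51 to 29.0%) and 34 of 307 in DKO-severe (11.1%, 7.79 to 15.1%). Among *Cd79a* cells with fewer than 20 *Jchain* UMIs they were 0 of 25 in WT (upper bound 13.7%) and 13 of 283 in DKO-severe (4.59%, 2.47 to 7.73%), of which 8 were *Ighg2b*, 4 *Ighg1* and 1 *Ighg3*. Most B cell-like cells of both mice were thus called *Ighm*, 25 and 270.

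**Figure D3:**
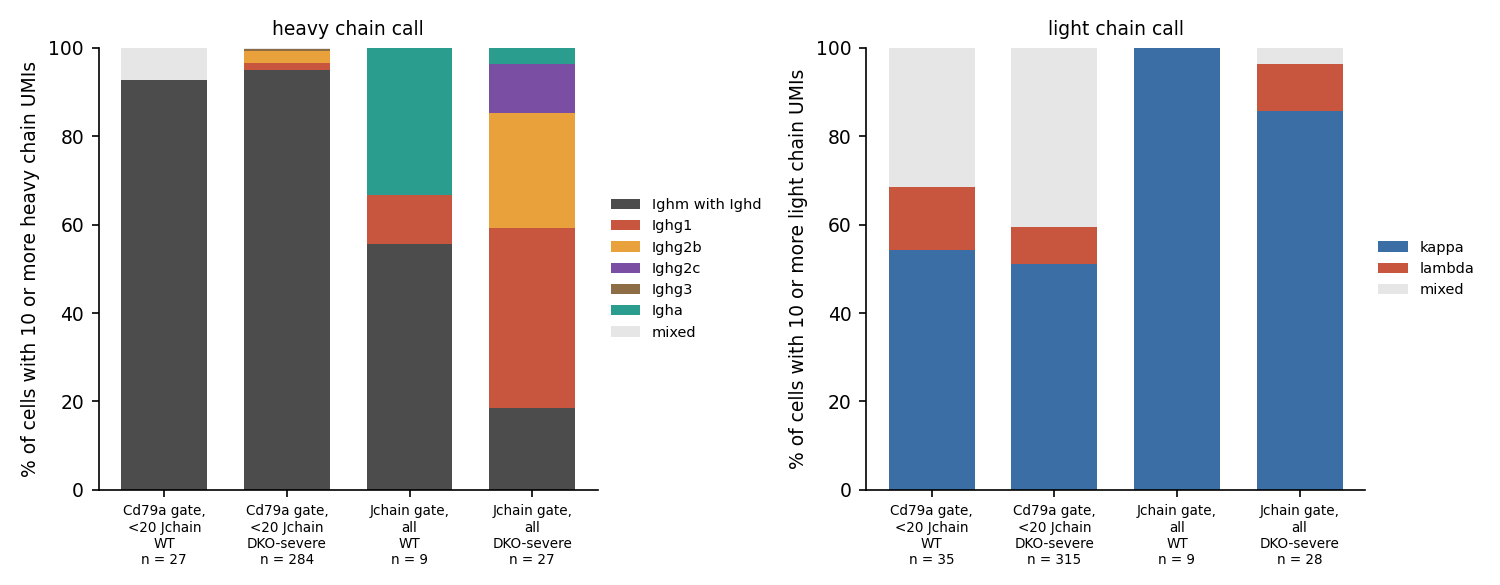
Heavy chain (left) and light chain (right) calls as a percent of cells with 10 or more UMIs of that chain, in *Cd79a* cells with fewer than 20 *Jchain* UMIs and in *Jchain* cells of each genotype; n under each bar is that number of cells. *Ighm* with *Ighd* takes 25 of 27 and 270 of 284 cells in the first pair of bars, and 5 of 9 and 5 of 27 in the *Jchain* pair.

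For the light chains, all 9 WT *Jchain* cells were called kappa, and of the 28 DKO-severe cells 24 were kappa, 3 lambda and 1 mixed. *Igkc* ran from 1776 to 16659 UMIs per WT cell (median 8140) and from 0 to 13138 per DKO-severe cell (median 4863). The 2 DKO-severe cells at 0 *Igkc* held 13598 and 2162 *Iglc1* UMIs and were both *Ighm* cells. The third lambda cell held 2058 *Iglc2* UMIs beside 1 *Igkc* UMI and was an *Ighg1* cell. In these 3 cells 1 lambda gene thus stood nearly or wholly without *Igkc*, as in a B cell, which uses 1 light chain locus.

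Lambda made up 1.05% of light chain UMIs in the WT *Jchain* gate and 12.6% in DKO-severe (1.17 and 13.6% with *Iglc3*). Over the *Cd79a* gate it was 1.88 and 13.2%, and 5.20% in DKO-severe without its highest cell, against 2.04% in WT. This order also turned, to 27.4% in WT and 25.8% in DKO-severe as a mean of per-cell shares and to the 34.6 and 18.3% given above with fewer than 20 *Jchain* UMIs. *Iglc1* was at 1397 CPM in the WT and 26772 CPM in the DKO-severe *Jchain* gate (log2 ratio 4.26, 4.10 to 4.43), with 82.1% of the DKO-severe UMIs in 1 cell. *Iglc2* was at 2617 and 5142 CPM (0.97, 0.85 to 1.10), with 64.7% in 1 cell, and *Igkc* at 376562 and 221363 CPM (-0.77, -0.78 to -0.75). Among B cell-like cells with 10 or more light chain UMIs, 19 kappa, 5 lambda and 11 mixed cells were found in WT and 161, 26 and 128 in DKO-severe, so the mixed share was 31.4 and 40.6%. A per-cell light chain call was thus less clean in B cell-like than in plasma cell-like cells.

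To place these differences, the same 2-fold limit was applied to all genes with 20 or more UMIs. In the *Cd79a* gate 9.61% of 9438 genes were 2-fold or more higher in DKO-severe and 4.24% were 2-fold or more lower. Of the 10 members 4 were higher (*Ighg1*, *Ighg2b*, *Ighg2c* and *Iglc1*) and 4 lower (*Ighm*, *Igha*, *Ighg3* and *Igkc*). In the *Jchain* gate 27.2% of 4000 genes were higher and 3.45% lower, and of the 8 members that reached 20 UMIs 4 were higher (*Ighg1*, *Ighg2b*, *Ighg2c* and *Iglc1*) and 2 lower (*Ighm* and *Igha*). The median log2 ratio was 0.47 over the members and 0.21 over all genes in the *Cd79a* gate, and 2.04 and 0.48 in the *Jchain* gate.

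Genes that fold and export antibody, and those of plasma and B cells, were read in the *Jchain* gate from lists chosen with earlier results of these data known, beside the 27.2% of all genes that were 2-fold or more higher there. Of 8 secretory pathway genes 4 were 2-fold or more higher and none lower, with a median log2 ratio of 1.04 against 0.48 over all genes. *Fkbp11*, a folding enzyme of the endoplasmic reticulum, was at 40.8 and 352 CPM (3.11, 2.16 to 4.26), the chaperone *Hsp90b1* at 1465 and 4257 CPM (1.54, 1.37 to 1.71), and the log2 ratio was 1.44 for *Herpud1* and 1.19 for *Pdia4*. Of 8 plasma cell genes 2 were higher, *Mzb1* (1.65, 1.49 to 1.82) and *Derl3* (1.05, 0.41 to 1.76), and 2 lower, *Jchain* (-1.32) and *Tnfrsf17*, the receptor for plasma cell survival signals (313 and 29.1 CPM, -3.43, -4.26 to -2.66). *Jchain* is the gene by which these cells were chosen, so its level depends on the limit of 20 UMIs. Of 8 B cell genes 4 reached 20 UMIs, and 3 of these were 2-fold or more higher. *Cd79b*, the partner of *Cd79a*, had a log2 ratio of 1.58 (0.998 to 2.21), *Ms4a1*, which encodes CD20, had 1 WT and 85 DKO-severe UMIs, and *Pax5* had 0 WT and 32 DKO-severe UMIs, the latter from 4 of 28 cells.

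In the *Jchain* gate 3 of 8 germinal centre and class switching genes reached 20 UMIs. All 3 were 2-fold or more higher in DKO-severe (median log2 ratio 1.63), beside 27.2% of all genes there. The 8 genes were also compared in the B cell-like cells, where 6.02% of 9071 genes were 2-fold or more higher in DKO-severe and 6.39% lower. Of 8, none was 2-fold or more higher in DKO-severe and 1 was lower, *Rgs13*, a regulator of chemokine signalling in germinal centre B cells (149 and 41.0 CPM, -1.86, -2.36 to -1.33); in WT its 50 UMIs were in 5 cells. Of 8 plasma cell genes 4 reached 20 UMIs in these cells and 2 were higher: *Irf4*, a factor needed for plasma cell formation, at 126 against 47.5 CPM (1.41, 0.68 to 2.23), and *Xbp1* with 119 against 6 UMIs (1.48, 0.32 to 2.96). In Cd4 cells without *Cd79a* or *Jchain* UMIs, 6 of 8 switch-directing cytokine genes reached 20 UMIs, and 4 of them were 2-fold or more higher in DKO-severe, beside 19.6% of all genes in these cells. *Il21*, the main cytokine of Tfh help, was at 2.85 and 71.9 CPM (4.66, 4.11 to 5.26), *Il10* had a log2 ratio of 2.36, *Ifng* of 1.48 and *Il4* of 1.41, while *Tgfb1*, which directs switching to *Igha*, had 0.49.

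Within the DKO-severe mouse, the cells called switched were set beside those called *Ighm*. The 35 switched cells had a median of 20419 UMIs and 22 of them were in the *Jchain* gate, while the 275 *Ighm* cells had a median of 5751 and 5 were in that gate. *Mzb1* was at 4330 CPM in switched and 454 CPM in *Ighm* cells, and *Hsp90b1* at 3717 and 283. Transcripts of resting B cells were lower in switched cells, with *Cr2* (complement receptor 2) at 15.3 against 193 CPM, *Fcer2a* (CD23) at 16.7 against 107 and *Pax5* at 152 against 688. These are values of 1 mouse, and the calls used the members alone.

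*Cr2* and *Fcer2a* were also lower in DKO-severe B cell-like cells without *Ighd*. The 266 cells with an *Ighd* UMI had *Cr2* at 230 CPM and *Fcer2a* at 129, and the 72 cells without one had 59.98 and 40.6. Their median depths were 5565 and 4633 UMIs, and the part of depth in this split was not tested. *Ms4a1* was at 835 and 681 CPM. The proliferation gene *Mki67* was at 107 and 249 CPM. An IgG UMI was found in 45 of the 266 and 27 of the 72 cells. *Ighm* was close in both, at 1941 and 1641 CPM.

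The T cell gates gave the level of these genes in cells that are not known to make antibody. The Cd4 gate held 1728 WT and 2742 DKO-severe cells, the Foxp3-positive gate 63 and 334 and the Cd8 gate 3038 and 1724. With all cells counted, *Igkc* was at 3046 and 720 CPM in Cd4, 75.7 and 963 in Foxp3-positive and 1107 and 389 in Cd8 cells. A few cells set these levels. In the Cd4 gate the 104 WT and 205 DKO-severe cells with a *Cd79a* or *Jchain* UMI held 92.3 and 60.8% of the members' UMIs, and 1 cell held 50.3 and 27.5%. In the Cd8 gate such cells held 82.0 and 67.4%, and in the Foxp3-positive gate 2 WT and 30 DKO-severe cells held 6.53 and 44.1%. Cells with either UMI were therefore left out of the values that follow.

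Without those cells, *Igkc* was at 88.0 CPM in the 1624 WT and 237 in the 2537 DKO-severe Cd4 cells (log2 ratio 1.43, 1.32 to 1.54). In the 61 WT and 304 DKO-severe Foxp3-positive cells it was at 75.0 and 496 CPM (2.73, 2.23 to 3.27), and in the 2873 and 1630 Cd8 cells at 70.7 and 68.3 (-0.05, -0.17 to 0.07). The 3 WT gates thus lay within 70.7 to 88.0 CPM. The DKO-severe gates ran from 68.3 in Cd8 cells, close to WT, to 496 in Foxp3-positive cells. A DKO-severe Foxp3-positive cell had 7.25 *Igkc* UMIs on average and 52 at most, against 0.541 and 5 in WT, and *Igkc* was found in 83.2 and 31.1% of cells at median depths of 11608 and 5477 UMIs. Foxp3-negative Cd4 cells had 183 CPM in DKO-severe and 88.6 in WT.

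*Ighm* did not follow *Igkc*. It was at 194 and 288 CPM in Cd4 (0.58, 0.50 to 0.65), 304 and 377 in Foxp3-positive (0.31, 0.05 to 0.57) and 200.5 and 119 in Cd8 cells (-0.75, -0.83 to -0.67), so the direction was opposite in Cd8 cells. *Ighd* was higher in DKO-severe Cd4 cells at 9.26 against 2.53 CPM (1.87, 1.26 to 2.54), and *Ighg3* had 61 UMIs against 4 (2.50, 1.07 to 4.42). In Foxp3-positive cells *Ighg3* had 28 UMIs in 13 DKO-severe cells and 0 in the shallower WT gate, where the 3-count floor lies above the DKO-severe level, so no difference was detectable at this depth. *Iglc1* was lower in DKO-severe, at 22.3 and 16.7 CPM in Cd4 (-0.41, -0.66 to -0.17) and 23.2 and 19.4 in Cd8 cells (-0.26, -0.47 to -0.04), and *Ighg1* was at 9.50 and 9.69 in Cd4 cells (0.03, -0.33 to 0.39).

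Against all genes with 20 or more UMIs, 19.6% of 14245 were 2-fold or more higher in DKO-severe Cd4 cells and 7.01% lower, and 3 of the 10 members were higher (*Ighd*, *Ighg3* and *Igkc*) and none lower. In Foxp3-positive cells 9.31% of 10560 genes were higher and 6.88% lower, and of the 6 members with enough UMIs 1 was higher (*Igkc*). In Cd8 cells 5.59% of 13235 genes were higher and 4.22% lower, and of 9 members none was either. The members' median log2 ratio was 0.24, 0.10 and -0.08 in the 3 gates, beside 0.15, 0.03 and -0.03 over all genes.

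Because DKO-severe cells were deeper, shares of cells were also taken after thinning each cell to 3800 UMIs. Of Cd4 cells, 25.8% of 1165 (WT) and 32.2% of 1813 (DKO-severe) then had an *Igkc* UMI. It was found in 19.2% of 26 (6.55 to 39.4%) and 69.0% of 84 (58.0 to 78.7%) Foxp3-positive cells and in 21.6 and 20.7% of Cd8 cells. In DKO-severe cells with no *Cd3* UMI, it was found in 13.9% of 72 (6.87 to 24.1%). All these cells lacked *Cd79a* and *Jchain* UMIs but could hold UMIs of other B lineage genes. A second random thinning gave 22.2% of 72 for the *Cd3*-free cells (13.3 to 33.6%) and 66.3% of 89 for the DKO-severe Foxp3-positive cells (55.5 to 76.0%). In both draws the interval of the DKO-severe Foxp3-positive share lay above those of the DKO-severe Cd4, Cd8 and *Cd3*-free cells. *Ighm* was found in 44.1 and 52.3% of Cd4 cells, 46.2 and 58.3% of Foxp3-positive cells, 49.7 and 35.3% of Cd8 cells and 22.2% of DKO-severe cells without *Cd3*. *Iglc1* was found in 7.04 and 6.95% of Cd4 and 7.50 and 7.05% of Cd8 cells, a like low share in each.

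**Figure D4:**
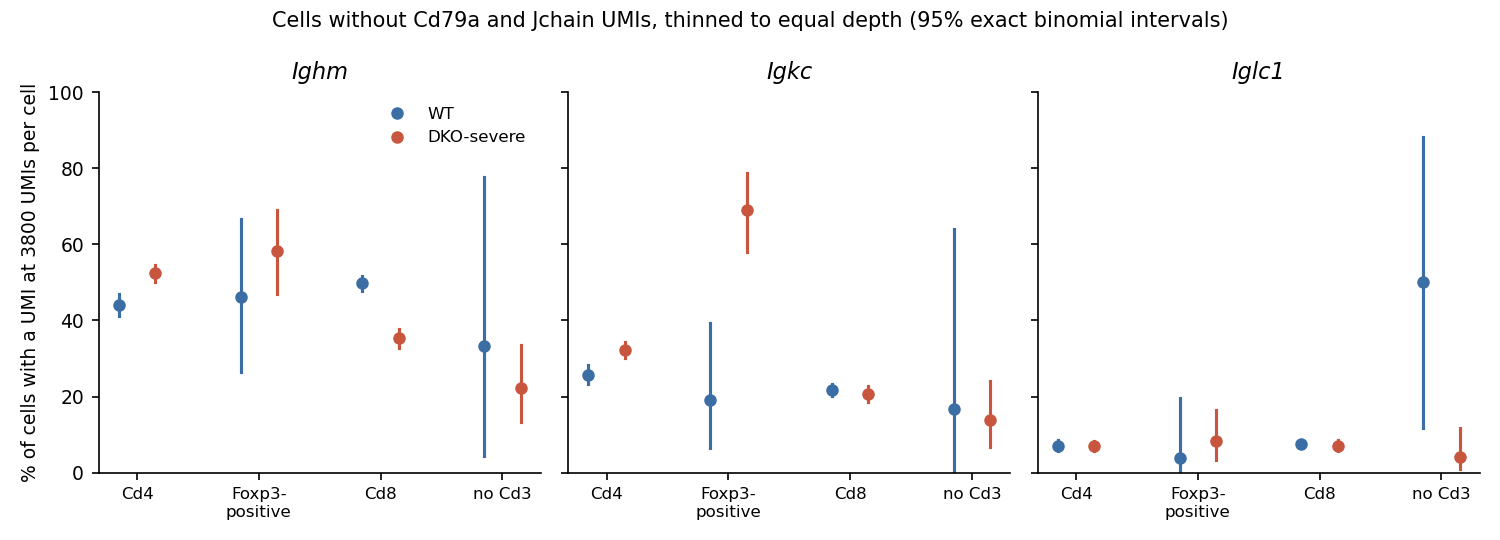
Percent of cells with a UMI of *Ighm*, *Igkc* or *Iglc1* after each cell was thinned to 3800 UMIs, in Cd4, Foxp3-positive, Cd8 and *Cd3*-free cells that had no *Cd79a* or *Jchain* UMI, for WT (blue) and DKO-severe (red) with exact 95% binomial intervals. *Igkc* reaches 69.0% in DKO-severe Foxp3-positive cells and lies at 13.9 to 32.2% in the other DKO-severe groups, while *Iglc1* lies at 4.17 to 8.33% in DKO-severe; the WT *Cd3*-free group has 6 cells.

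The ratios between members were also compared across gates. *Igkc* had 14.2 UMIs per *Iglc1* UMI in DKO-severe Cd4 cells, 50.1 in Foxp3-positive and 3.51 in Cd8 cells, beside 3.95, 5.50 and 3.05 in WT. *Ighm* had 1.22, 0.759 and 1.74 UMIs per *Igkc* UMI in the DKO-severe gates and 2.20, 4.06 and 2.83 in WT, while the ratio was 0.0596 in the DKO-severe *Jchain* gate and 0.233 in its B cell-like cells. The part of free RNA and of mixed droplets in these ratios was not tested. *Ighm* made up 84.9 to 92.2% of heavy chain UMIs in the T cell gates and the switched genes 4.68 to 10.9%.

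Within the DKO-severe mouse, *Igkc* in CPM was higher in Foxp3-positive than in Cd8 cells by a log2 ratio of 2.86 (2.75 to 2.97) and than in Foxp3-negative Cd4 cells by 1.44 (1.37 to 1.52). *Ighm* was higher by 1.66 (1.57 to 1.76) and 0.48 (0.40 to 0.56) and *Ighg3* by 4.02 (2.72 to 5.58) and 2.01 (1.23 to 2.79). *Iglc1* was lower by these measures, at -0.97 (-1.46 to -0.51) and -0.87 (-1.36 to -0.42). Among the Foxp3-positive cells, *Igkc* was at 543 CPM in the 239 with a UMI of *Dscam*, *Penk* or *Hapln1*, genes picked after their values were seen, and at 250 in the 65 without (1.12, 0.90 to 1.35), and *Iglc1* at 7.50 and 22.5.

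Reads of the variable segments were sought beside the constant genes, since the kit reads the 3′ end of an mRNA and reaches them rarely. *Igkv* segments had 8.89 UMIs per 1000 *Igkc* UMIs in the DKO-severe *Jchain* gate and 12.4 in B cell-like cells. In DKO-severe Foxp3-positive cells they had 0 UMIs beside 2205 *Igkc* UMIs, which allows up to 1.67 per 1000. In DKO-severe Cd4 cells they had 7 beside 6068, or 1.15 per 1000 (0.464 to 2.38). *Ighv* segments had 15.5 per 1000 heavy chain UMIs in the *Jchain* gate and 27.7 in B cell-like cells, beside 3.45 in Cd4 and 1.10 (2 of 1816 UMIs) in Foxp3-positive cells. For *Igkv* and *Ighv* the intervals of the DKO-severe Cd4 and Foxp3-positive gates lay below those of the B lineage cells. Low *Ighv* was shared by DKO-severe Cd8 (2.31), WT Cd8 (2.73) and WT Cd4 cells (2.96). For *Igkv* the intervals of these gates were 0.587 to 8.32, 1.17 to 8.41 and 1.95 to 14.01. They overlapped that of the WT *Jchain* gate (5.98 to 7.09). WT Foxp3-positive cells had too few UMIs to tell (33 *Igkc* and 146 heavy chain). *Iglv* did not follow in the DKO-severe mouse. It had 39.7 UMIs per 1000 *Iglc1* UMIs in Cd4 cells (23.1 to 63.6) and 45.5 in Foxp3-positive cells (2 of 44 UMIs). It had 28.1 (21.3 to 36.5) in B cell-like cells and 189 in the *Jchain* gate.

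Transcripts of other cell types were counted beside these levels. Sums of 6 markers each were counted in Foxp3-positive cells without *Cd79a* or *Jchain* UMIs. The B cell sum was 15.9 CPM in WT and 17.3 in DKO-severe, and the plasma cell sum 47.7 and 72.4, with *Tnfrsf17* at 0 in both. *Cd79a* and *Jchain* are 0 here by the choice of cells. The granulocyte sum was 77.3 and 5760, the monocyte or macrophage sum 18.2 and 696 and the erythroid sum 25.0 and 942. In Cd8 cells the granulocyte sum was 77.7 and 1492, where *Igkc* was close in both mice. The part of these transcripts in the *Igkc* level was not tested. In a stricter set of cells, chosen after seeing the data and without a UMI of any of 10 B lineage markers (56 WT and 249 DKO-severe cells), *Igkc* was at 86.0 and 490 CPM in Foxp3-positive cells (2.51, 2.01 to 3.06). Leaving out cells with 20 or more UMIs of the granulocyte gene *S100a8* took away only 7 DKO-severe and 0 WT cells, and *Igkc* was then at 503 CPM in DKO-severe.

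The genes most like each member were taken over the 366 DKO-severe cells of the *Cd79a* or *Jchain* gate, by Pearson's r of log2(1 + counts per 10000 UMIs) among 8784 genes outside the immunoglobulin loci. All these cells share 1 library and differ in depth, and r describes them only. *Ighd* was most like the B cell adaptor *Bank1* (0.65) and the class II genes *H2-Aa* (0.63) and *H2-Eb1* (0.59). *Ighm* was most like *Foxp1* (0.41), *Ly6d* (0.37) and *Ebf1* (0.36), all expressed in B cells. *Ighg1* was most like *Tmem176a* (0.73), *Cpeb3* (0.70) and *Slpi* (0.67), and *Ighg2b* like *Prg2* (0.61), *Derl3* (0.48) and *Nuggc* (0.48). *Ighg2c* (*Glipr1*, 0.38), *Igha* (*Wdr17*, 0.30), *Iglc1* (*Bst2*, 0.27) and *Ighg3* (*Cdc45*, 0.28) had weaker leading genes. *Igkc* was most like *Jchain* (0.51), *Tent5c* (0.48) and *Fndc3b* (0.48), and *Iglc2* like *Cd74* (0.44). *Jchain* is also a gene by which these cells were chosen. *Ighm* and *Ighg1* had an r of -0.44 and *Ighm* and *Ighg2b* of -0.42.

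Over the 2537 DKO-severe Cd4 cells without *Cd79a* or *Jchain* UMIs, of which 2195 had no UMI of the 10 B lineage markers, *Igkc* was most like *Cd74* (0.48), *Ikzf2*, which encodes the Treg factor Helios (0.44), and *Tnfrsf9* (0.40), with *Ighm* at 0.23. *Ighm* there was most like *Ikzf2* (0.28), and *Iglc1* had no r over 0.09 among the genes outside the immunoglobulin loci. In the 1630 DKO-severe Cd8 cells *Ighm* was lower where the effector genes *Ccl5* (-0.37) and *Nkg7* (-0.37) were higher. In WT Cd4 and Cd8 cells the highest r of *Ighm*, *Igkc* or *Iglc1* was 0.19.

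The gate limits cut few cells. In DKO-severe, the 8 cells at 3 *Cd79a* UMIs had a median of 9 *Igkc* UMIs and the 5 cells at 2 had 3; in WT the 3 cells at 3 had a median of 20 and the 2 at 2 had 1 UMI between them. For *Jchain*, 7 DKO-severe cells lay at 10 to 19 UMIs, with a mean of 100 *Igkc* UMIs, and 2 lay at 20 to 39, with 208.5; no WT cell lay in either range.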

How the data were processed

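The authors deposited UMI counts per gene and cell, made with Cell Ranger 7.1.0 (matrix header) and the mm10 genome, as 1 matrix per genotype with 2 hashtag features. The submitters' notes also name Seurat. The annotation release, any use of intronic reads and the filters applied before deposit are not given in the sources used here. Counts were summed without normalization and scaled to 1000000 UMIs (CPM). Cells were retained from 500 detected genes upward if mitochondrial genes took no more than 10% of UMIs (185 WT and 396 DKO-severe removed, including 3 WT barcodes with more counts of the other hashtag). The automatic threshold of Scrublet (scanpy 1.11.5) marked 0 and 1 barcodes and had not worked, and instead the 6% of cells with the top scores per matrix were dropped (460 and 407).

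The Cd4 gate took cells with a *Cd4* UMI and any *Cd3d*, *Cd3e* or *Cd3g* UMI but none of *Cd8a* or *Cd8b1*, and the Cd8 gate the reverse. Foxp3-positive cells were those of the Cd4 gate with *Foxp3*. For equal depth, cells were thinned to 3800 UMIs and gated again, which left out 692 WT and 477 DKO-severe cells. Ratios count fewer than 3 UMIs as 3 and are not given where both sums are at or under 3; their intervals are exact, conditional on the total. Shares have Clopper-Pearson and levels Poisson intervals (scipy 1.17.1). The interval code was tested on simulated data.

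The members, lists and rules were chosen with earlier results of these data known. Named genes are the members, the gate genes, the genes of 5 lists, other constant genes and, per member, the 3 genes of highest correlation; other names were chosen after their values were seen. Alternatives changed doublet, mitochondrial and gate limits, weights, totals, thinning and call limits; the sets without 10 B lineage markers or *S100a8*-high cells were added after seeing the data. Some genes of these lists are counted in the list totals and not reported here by name.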

Additional observations from a re-analysis of the deposited data

Results flagged for a closer look

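The ratio of *Ighm* between the genotypes had opposite signs in different T cell gates, in cells without *Cd79a* or *Jchain* UMIs. The log2 ratio of DKO-severe over WT was 0.58 in the Cd4 gate and -0.75 in the Cd8 gate, and 0.31 in the Foxp3-positive gate against the same -0.75. The difference was not tested, since there was 1 mouse of each genotype.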

How the results depend on the processing

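No paired analysis was possible because the only groups are 1 mouse per genotype and no test was made. For the summed level, the switched and lambda shares, the equal-depth share and the cell calls, 152 values were recomputed. Of these, 75 stayed within their counting interval, 75 left it and 2 log2 ratios reversed in sign. Only log2 ratios could be counted as reversed. A turned order of the genotypes in a share was not counted, and some switched and lambda shares below did turn. The cause was not tested. The log2 ratio of the members' UMIs (*Cd79a* gate -1.31, *Jchain* -0.55, Cd4 -1.57, Foxp3-positive 1.74, Cd8 -1.34) reversed to 0.86 in *Cd79a* cells with fewer than 20 *Jchain* UMIs, where 1 DKO-severe cell held 31.9% of these UMIs. It also reversed to 0.81 in Cd4 cells without *Cd79a* or *Jchain* UMIs, where the other gates gave 1.12 and -0.48. With those cells kept, *Ighm* (-0.64) and *Igkc* (-2.08) reversed in the Cd4 gate. In the order of gates above, it was -1.52, -0.59, -1.52 and -1.17 (Cd8) without doublet removal; -1.68, -0.25, -1.79, 1.14 and -2.83 with the highest 12% of scores removed; -1.27, -0.42, -1.68 and -1.40 (Cd8) without a mitochondrial filter; -1.26, -0.31, -0.30, 1.40 and -0.62 with equal weight per cell; -1.49, -0.94 and -1.72 with immunoglobulin, haemoglobin, mitochondrial and ribosomal genes out of the total; and, without the highest cell of each mouse, -1.16, -1.03 (Cd4), 1.15 and -1.45. It was -1.30, -1.43 and -1.65 with 2 or more, 5 or more, or no *Cd3* beside *Cd79a*, -0.79 and -0.39 at 10 and 40 *Jchain* UMIs, and -2.11, 1.18 and -1.41 in T cell gates of 2 or more UMIs.

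The switched share of the DKO-severe *Cd79a* and *Jchain* gates was 66.4 and 72.4% without doublet removal, 77.05 and 83.2% with 12% removed and, for *Jchain*, 81.6% without a mitochondrial filter. For WT and DKO-severe *Cd79a* cells it was 59.6 and 77.1% at 5 or more UMIs, 93.7 and 65.9% without *Cd3* UMIs, 3.96 and 33.7% under 20 *Jchain* UMIs, 34.7 and 79.9% without the highest cells and 16.4 and 12.3% as a mean of cells; for *Jchain* cells the last 2 were 30.6 and 86.1%, and 44.45 and 81.2%. The lambda share of *Cd79a* cells was 1.59 and 13.9% with 12% removed, 2.31 and 22.9% without *Cd3*, 34.6 and 18.3% under 20 *Jchain* UMIs, 2.04 and 5.20% without the highest cells, 27.4 and 25.8% as a mean of cells and, in DKO-severe, 14.4% at 5 or more UMIs. Switched calls in *Cd79a* cells were 0 and 4.59% under 20 *Jchain* UMIs and, in DKO-severe, 7.26% without *Cd3* and 37.5% with calls from 30 UMIs. The share with *Igkc* was 33.4 and 50.8% (Cd4) and 32.6 and 39.2% (Cd8) without thinning, 23.03% in WT Cd4 cells without a mitochondrial filter and 29.05% in DKO-severe Cd4 cells at 2 or more UMIs.

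The spread between mice is unknown, and 9 WT *Jchain* cells and 26 thinned WT Foxp3-positive cells leave wide intervals.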
